A study of Rattus norvegicus with 2 samples.

Results

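Of the 9170 cells in the series, 86 held transcripts of Ifit2, Ifit3 and Rsad2, 3 genes of the interferon-stimulated program, above a threshold. Members were chosen by their measured counts. A cell was a member when it held at least 500 counts in all and a summed count of 2 or more for Ifit2, Ifit3 and Rsad2. Ifit2 and Ifit3 code for antiviral proteins with tetratricopeptide repeats, and Rsad2 codes for viperin, an enzyme that makes a chain-terminating nucleotide against viral RNA. These cells were 33 of the 3457 in the library labelled TNF and 53 of the 5713 in the control library. The name of an interferon-stimulated program does not hold for all of them, since 6 and 16 met the rule through Ifit2 alone. The median share of their other interferon-stimulated transcripts lay nearer to that of other cells than to that of the remaining members. Within each library they were compared, across all other genes, with the cells that held no count of any of the 3 genes and at least 2000 counts in all, which numbered 2358 and 3649 and are called comparison cells.

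The cells were IEC-6, an established line of non-transformed epithelial cells from rat small intestine, measured by single-cell RNA sequencing in 1 library labelled TNF and 1 control library. Per the labels, cells of the first group were exposed to recombinant rat TNF at 100 ng/mL for 72 hours, over and over, for 10 cycles, and control cells received phosphate-buffered saline (PBS) instead. Both groups were grown in the same medium with serum and insulin, were frozen, and were thawed before the libraries were made. The labels name no genetic change in either group. The sample titles carry different prefixes for the 2 libraries, so preparation and treatment cannot be told apart, and with 1 library per group no difference between them was tested. TNF is an inflammatory cytokine that acts largely through the transcription factor NF-kB. In the comparison cells the chemokine Ccl2, a textbook NF-kB target, stood at 57.5 counts per 1000000 (CPM) in the library labelled TNF and at 958 CPM in the control library, and Cxcl1 stood at 145 and 1497 CPM, so directions between the libraries are given by their labels only.

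In an epithelial cell, viral or misplaced nucleic acid is sensed by receptors such as Rig-I and Mda5, and the cell then makes interferon beta. Interferon binds the receptor pair Ifnar1 and Ifnar2 on the same or a neighbouring cell, and factors that include Stat2 and Irf9 then bind a DNA element called the interferon-stimulated response element (ISRE). Many genes can follow, a large part of which block viruses, while others, such as Usp18, end the signal. Irf1, Irf3 and Irf7 bind similar elements, and some of these genes, Ifit2 and Cxcl10 among them, are known to respond to such factors without interferon.

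Member cells made up 0.955% of the library labelled TNF (exact Clopper-Pearson 95% interval 0.658 to 1.34) and 0.928% of the control library (0.696 to 1.21). The difference was 0.0269 percentage points, with an interval from -0.384 to 0.475, so a difference of either sign within those bounds was not detectable with these numbers of cells. A count threshold is met more easily by deeper cells, and members held a median of 4979 and 5725 counts, against 3566 and 2902 in all cells of their libraries. After every cell was thinned to 2000 counts, with 965 and 1782 shallower cells left out, 15 of 2492 cells (0.602%) and 17 of 3931 cells (0.432%) met the rule. The interval of that difference ran from -0.201 to 0.598 percentage points. Of the 24 barcodes that both libraries shared, 0 belonged to a member.

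Most members stood close to the threshold, and a few stood far above it. The summed count of the 3 genes was exactly 2 in 17 members of the library labelled TNF and in 29 of the control library. Just outside the rule, 125 and 285 cells had a summed count of 1. The highest summed counts in one cell were 42 and 33. In the library labelled TNF, 17 members held counts of 1 of the 3 genes, 14 of 2 and 2 of all 3, and in the control library the numbers were 32, 15 and 6. Ifit3 was detected in 23 of 33 and 33 of 53 members, Ifit2 in 17 and 36, and Rsad2 in 11 and 11. The member of the library labelled TNF with the highest sum held 26 counts of Ifit2 and 16 of Ifit3, which was 41.3% of all Ifit2 counts in the members of that library. These values chose the cells and are given as a description.

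**Figure D1:**
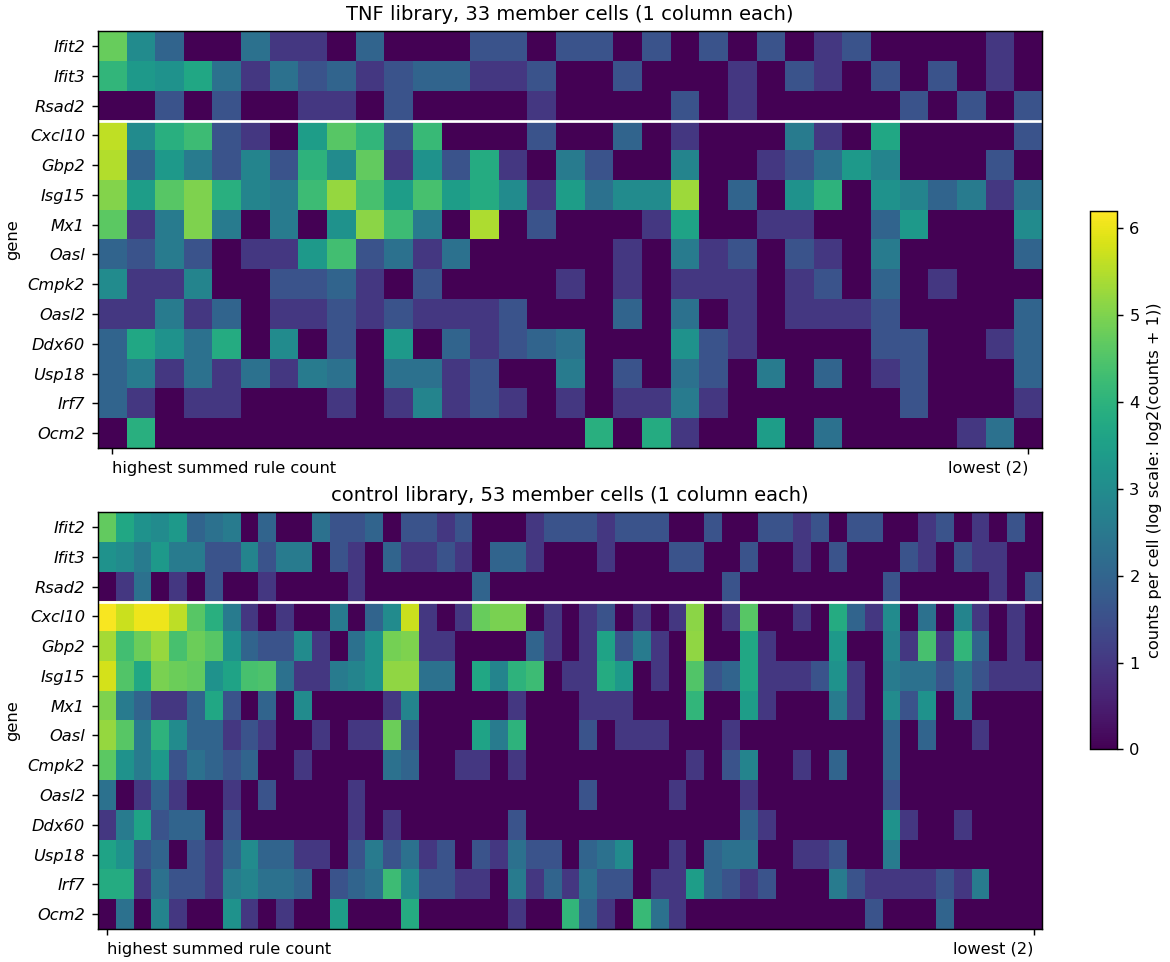
Counts per cell (colour, log2 of counts + 1) of the 3 genes of the rule, above the white line, and of 11 other genes, below it, in each member cell of the 2 libraries, 1 column per cell, ordered by the summed count of the rule genes. Cxcl10, Gbp2 and Isg15 reach their highest counts toward the left, while some cells at a sum of 2 on the right hold few counts of any of these genes.

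Cxcl10, the chemokine that draws T cells and a marker of the program that the rule did not use, was detected in 18 of 33 members (54.5%, interval 36.4 to 71.9) and in 7.89% of comparison cells in the library labelled TNF. In the control library it was detected in 36 of 53 members (67.9%, interval 53.7 to 80.1) and in 21.7% of comparison cells. Members were deeper than comparison cells, with medians of 4979 against 4590.5 counts and of 5725 against 4031, and the part of depth in these shares was not tested. Counts per member ran from 0 through a median of 1 to 48 in the library labelled TNF, and from 0 through 1 to 69 in the control library. Pooled over cells, its level was 1035 CPM in members and 25.2 CPM in comparison cells of the first library, a ratio of 41.1 (exact conditional binomial 95% interval 34.1 to 49.4), and 1470 and 71.2 CPM in the second, a ratio of 20.6 (18.7 to 22.7). The members, under 1% of the cells, held 184 of the 654 Cxcl10 counts of the library labelled TNF (28.1%) and 596 of 2508 in the control library (23.8%). All such intervals cover counting error only, since cells of one library are not replicates.

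The other interferon-stimulated genes were read as a list of 79 genes without the 3 of the rule. Leaving out Cxcl10 as well, the list took a median of 2.19% of the counts of a member in the library labelled TNF, with a lowest value of 0.621% and a highest of 4.59%, against a median of 0.790% in comparison cells. In the control library the median was 1.15%, from 0.409% to 8.32%, against 0.685%. Members and comparison cells overlapped in both libraries. The comparison cells' 95th percentile, 1.41% and 1.14%, was passed by 20 of 33 and by 27 of 53 members. At or under the comparison median stood 2 and 9 members, so that the rule also took cells whose other interferon-stimulated transcripts were no higher than usual. Conversely, 9 of 2358 comparison cells (0.382%) in the library labelled TNF and 178 of 3649 (4.88%) in the control library reached the median of their library's members with no count of the 3 genes.

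By its median, the share of the list was higher in cells with more counts of the rule genes, from a sum of 1 upward. In the library labelled TNF its median was 0.871% of counts in the 101 cells with a sum of 1 and at least 2000 counts, 1.20% at a sum of 2, 2.79% at 3 to 4 and 2.92% at 5 or more. In the control library the medians were 0.683%, 0.907%, 1.13% and 2.50%, and the cells at a sum of 1 did not stand above comparison cells, at 0.685%. Taken over pooled counts, the share in the library labelled TNF was 2.86% at 3 to 4 and 2.71% at 5 or more. At a sum of 5 or more, 6 of 7 and 11 of 12 members lay above the comparison cells' 95th percentile, and at a sum of 2 it was 5 of 17 and 10 of 29.

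**Figure D2:**
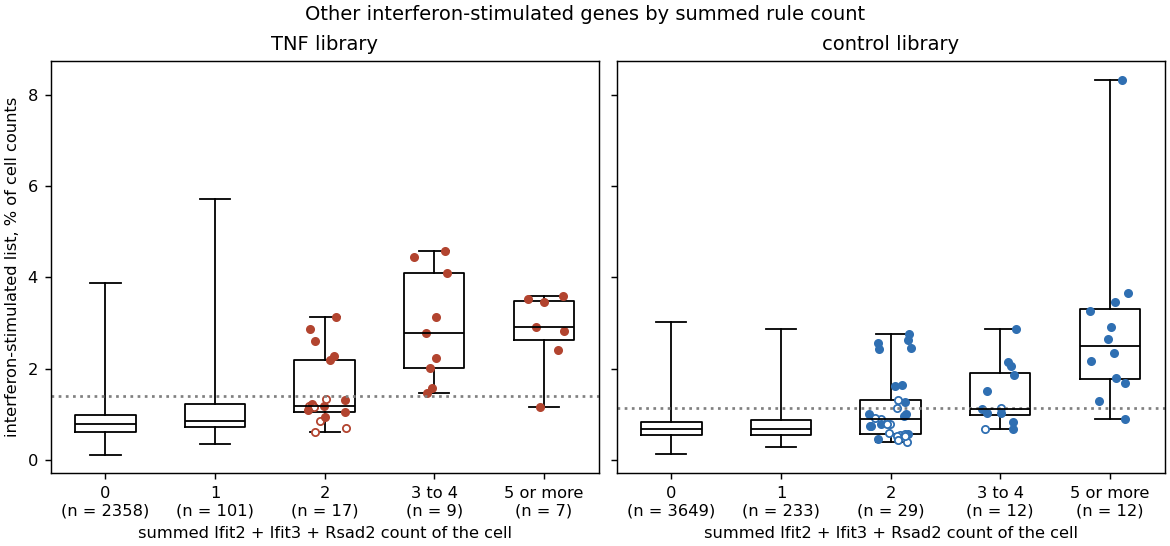
Share of each cell's counts that fell on the interferon-stimulated list (y axis, percent, without the 3 rule genes and Cxcl10) by the cell's summed count of the rule genes (x axis) in the 2 libraries. Boxes give quartiles and whiskers the range, points are single members, open points are members with Ifit2 as their only rule gene, and the dotted line is the 95th percentile of comparison cells; medians go from 0.790% at a sum of 0 to 2.92% at 5 or more in the library labelled TNF and from 0.685% to 2.50% in the control library.

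Across all other genes, a gene was compared when the members held at least 10 counts of it or would have held 10 at the comparison level, and it was called at a ratio of at least 2 or at most 0.5. In the library labelled TNF 140 of 3856 genes were higher (3.63%) and 81 were lower (2.1%). In the control library 123 of 6399 were higher (1.92%) and 134 lower (2.09%). In both libraries at once, 35 of 3805 genes were higher (0.92%) and 3 lower (0.0788%), and 27 of the 35 belong to the interferon-stimulated list. Those 35 were 28.7% of the 122 genes higher in the library labelled TNF and 81.4% of the 43 higher in the control library, among genes compared in both. A gene compared in a library only through the members' own counts had a ratio above 1 there. Both shares thus follow in part from how genes were admitted and do not measure agreement of the libraries. For 18 of the 35 the whole interval lay above 2 in both libraries, and for all 35 it lay above 1. Of the list, 34 of 47 genes compared were higher in the library labelled TNF and 34 of 60 in the control library, with 0 lower in each and median log2 ratios of 1.82 and 1.18, against 0.03 and 0.02 over all genes compared. Some list genes were compared only because the members held 10 counts of them, and these had to be high. With genes admitted by the comparison level alone, a choice made after seeing the data, 11 of 23 list genes were higher in the first library. In the second, 19 of 42 were. Over all genes so admitted, 29 of 3330 and 39 of 5934 were higher. The list's median log2 ratios were 0.92 and 0.83, against -0.04 and -0.01 over all those genes. In both libraries 12 of 3316 genes were higher, 10 of them in the list.

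**Figure D3:**
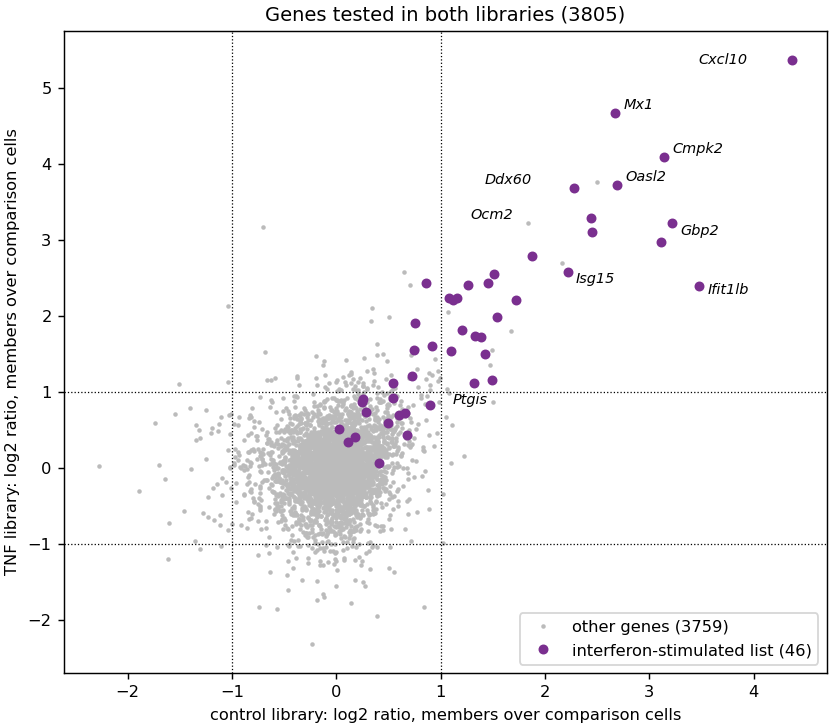
Log2 ratio of members over comparison cells for the 3805 genes compared in both libraries, control library on the x axis and library labelled TNF on the y axis, 1 point per gene, with dotted lines at 2-fold. Of the 46 genes of the interferon-stimulated list (large points) 27 lie beyond 2-fold in both libraries, with Cxcl10 farthest out, and of the other 3759 genes 8 do.

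The genes higher in both libraries were set beside RefSeq promoter sequences of the GRCr8 assembly, as the 250 bases before each gene's start. The ISRE core was searched on both strands as GAAA, any 2 bases and GAAA again, which reads TTTC, 2 bases and TTTC on the opposite strand. Promoters were matched for 21 of the 35 genes, and 13 of the 21 (61.9%) held the core. It was in 902 of all 27457 promoters (3.29%) and in 96 of the 2874 matched among genes compared in both libraries (3.34%). Among genes higher only in the library labelled TNF, 11 of 73 matched promoters held it (15.1%), and among those higher only in the control library 1 of 6. Of the rule genes, Ifit3 and Rsad2 were matched, and both held it. The NF-kB consensus, searched on both strands, was in 5 of the 21 promoters (23.8%), in 9.05% of the promoters of genes compared and in 6.41% of all, and an ISRE core overlapped none of the 3 matches in the Cxcl10 promoter. A match describes these letters and is no evidence of binding. Only promoters that hold the core are shown, those of the 2 rule genes and of 4 genes that the members held at high ratios. Matched promoters without the core are not shown. The sequences run 5′ to 3′ in the direction of the gene, with the ISRE core in capitals, to let the same element be seen at its different places.
Ifit3 (chr1:241527076-241527325, plus strand): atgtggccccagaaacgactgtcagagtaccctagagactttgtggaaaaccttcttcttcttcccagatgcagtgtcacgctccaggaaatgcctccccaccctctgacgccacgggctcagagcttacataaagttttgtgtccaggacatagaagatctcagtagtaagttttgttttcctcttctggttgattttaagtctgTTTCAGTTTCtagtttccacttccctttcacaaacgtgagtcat
Rsad2 (chr6:48788121-48788370, minus strand): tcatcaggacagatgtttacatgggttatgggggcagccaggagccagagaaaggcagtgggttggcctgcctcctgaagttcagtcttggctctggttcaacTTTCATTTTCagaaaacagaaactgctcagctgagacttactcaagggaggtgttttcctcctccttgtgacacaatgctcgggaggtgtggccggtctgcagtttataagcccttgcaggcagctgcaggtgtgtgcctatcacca
Cxcl10 (chr14:15988816-15989065, plus strand): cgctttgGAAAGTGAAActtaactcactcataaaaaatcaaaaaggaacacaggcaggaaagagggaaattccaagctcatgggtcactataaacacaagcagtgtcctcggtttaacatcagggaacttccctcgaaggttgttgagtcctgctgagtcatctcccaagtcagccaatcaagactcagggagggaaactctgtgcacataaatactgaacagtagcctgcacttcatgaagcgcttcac
Gbp2 (chr2:234005477-234005726, plus strand): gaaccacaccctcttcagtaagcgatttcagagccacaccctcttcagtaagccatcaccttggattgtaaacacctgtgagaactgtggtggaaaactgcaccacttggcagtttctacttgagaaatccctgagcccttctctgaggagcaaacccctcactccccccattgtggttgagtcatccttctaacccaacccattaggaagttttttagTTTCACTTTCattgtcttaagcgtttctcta
Oasl2 (chr12:47383186-47383435, minus strand): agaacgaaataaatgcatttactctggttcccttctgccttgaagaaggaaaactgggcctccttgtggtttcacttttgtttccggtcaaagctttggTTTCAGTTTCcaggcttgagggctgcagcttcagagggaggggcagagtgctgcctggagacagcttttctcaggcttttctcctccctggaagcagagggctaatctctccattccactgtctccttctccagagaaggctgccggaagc
Ddx60 (chr16:33208840-33209089, minus strand): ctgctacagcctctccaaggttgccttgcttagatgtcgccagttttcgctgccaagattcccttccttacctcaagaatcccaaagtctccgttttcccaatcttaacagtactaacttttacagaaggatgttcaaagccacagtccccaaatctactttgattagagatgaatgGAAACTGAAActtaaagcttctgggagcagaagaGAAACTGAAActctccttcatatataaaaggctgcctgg
The core begins at -44 from the start of Ifit3, at -147 in Rsad2, at -243 in Cxcl10, at -31 in Gbp2 and at -151 in Oasl2. Ddx60 holds a pair, at -73 and -39.

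Of the interferons themselves, almost nothing was detected. Ifnb1, which codes for interferon beta, had 0 counts in the library labelled TNF and 1 count in the control library. That 1 count lay in the control member with the highest summed count of the rule genes, 33, in which the interferon-stimulated list took 8.32% of 4843 counts. The same cell held 69 counts of Cxcl10, 55 of Isg15, 36 of Oasl, 31 of Mx1 and 9 of the 19 member counts of Ccl5, a T-cell chemokine made by virus-infected epithelium. Cxcl11, a chemokine for the same receptor as Cxcl10, had 26 counts in 3 control members, 24 of them in a single cell, and 0 in members of the library labelled TNF. Of the receptor chains, Ifnar1 stood at 101 CPM in members and 90.1 CPM in comparison cells of the library labelled TNF and at 217 and 150 CPM in the control library, ratios of 1.12 (0.663 to 1.78) and 1.45 (1.16 to 1.79). Of the list of interferons and receptors, 0 of 1 and 0 of 4 genes compared were past 2-fold.

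Sensors of nucleic acid were higher in part. Of 22 listed genes, 4 of 9 compared were higher in the library labelled TNF and 4 of 15 in the control library, with 0 lower. Over all genes compared, 3.63% and 1.92% were higher. Ddx58, Ifih1 and Oas1a were higher in both. Most of these calls rested on genes compared only through the members' own counts, which had to be high. With genes admitted by the comparison level, 0 of 3 were higher in the first library and 2 of 11 in the second, which were Ifih1 and Trex1. Over all genes so admitted it was 29 of 3330 and 39 of 5934. Ddx58, which codes for the sensor Rig-I, stood at 90.0 against 16.7 CPM in the first library (ratio 5.38, 3.02 to 8.94) and at 24.7 against 9.01 CPM in the second (2.74, 1.29 to 5.16), the latter from 10 member counts. Ifih1, which codes for Mda5, stood at ratios of 2.91 (1.93 to 4.21) and 2.15 (1.48 to 3.03), and Oas1a, one of the enzymes that make 2-5A to start RNA decay, at 5.29 (3.13 to 8.44) and 2.40 (1.36 to 3.96). Zc3hav1, an antiviral RNA-binding protein and the most abundant of this list, stayed under the threshold at 1.65 and 1.62.

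Among the factors that carry the signal, Irf7, the factor that amplifies interferon production, was the one higher in both libraries, of 8 compared in both. It was detected in 17 of 33 members and 29.5% of comparison cells of the library labelled TNF, and in 44 of 53 members and 43.5% of comparison cells of the control library. Its levels were 169 against 75.8 CPM (ratio 2.23, 1.49 to 3.20) and 382 against 136 CPM (2.82, 2.38 to 3.31). Stat2 was past 2-fold in the library labelled TNF, at 3.03 (1.81 to 4.79), and stood at 1.89 (1.33 to 2.62) in the control library. In the first it was compared only through the members' own counts. Irf1, a factor that NF-kB and interferon gamma both raise, stood at 1.47 in the control library, while 7 member counts were too few to compare it in the other. Both genes were named after their values were seen.

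Antiviral effectors were among the genes with the highest ratios in both libraries. Admitted by the comparison level, Gbp2, Isg15, Usp18 and Rnf213 were higher in both libraries. Oasl, Samd9l, XAF1 and Mx1 were so in the control library alone. In the library labelled TNF these, and in both libraries Cmpk2, Herc6, Ifit1lb, Oasl2 and Ddx60, were compared only through the members' own counts. Ratios of genes compared in that way could only lie above 1. Gbp2, a guanylate-binding protein that attacks the vacuoles of pathogens, was detected in 24 of 33 and 37 of 53 members, with a median of 2 counts per member in each library and highest counts of 44 and 40. It stood at 1012 against 109 CPM in the library labelled TNF and at 1034 against 111 CPM in the control library, ratios of 9.29 (7.91 to 10.9) and 9.31 (8.36 to 10.3). Both its levels and its ratios lay within each other's intervals in the 2 libraries.

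Cmpk2, a mitochondrial nucleotide kinase, stood at 208 against 12.2 CPM and at 215 against 24.4 CPM, ratios of 17.0 (11.5 to 24.5) and 8.81 (6.93 to 11.1). Oasl, a relative of the 2-5A enzymes that binds Rig-I, stood at ratios of 7.84 (6.07 to 9.99) and 8.65 (7.31 to 10.2). Reads of the closely related Oas, Gbp, Mx and Ifit genes may have been split between copies by the authors' counting, so values of single members of these families are uncertain. Samd9l, a restriction factor that slows translation, stood at 9.76 (6.76 to 13.7) and 5.43 (4.13 to 7.02). Over cells, detection of Samd9l was the most like that of the rule, with phi coefficients of 0.143 and 0.122, followed by Cxcl10, XAF1, Cmpk2 and Oasl2, ranked by the smaller of the 2 libraries' values. The coefficients span all 3457 and 5713 cells and share the cells' depth.

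Isg15, a ubiquitin-like modifier that is attached to new proteins, was found in 30 of 33 members and 64.6% of comparison cells of the library labelled TNF, and in 48 of 53 members and 55.6% of comparison cells of the control library. Levels were 2109 against 354 CPM and 1201 against 258 CPM, ratios of 5.96 (5.35 to 6.62) and 4.65 (4.23 to 5.11). Usp18, which removes Isg15 and dampens the receptor, stood at 4.69 (3.60 to 6.02) and 2.11 (1.72 to 2.56). Of the list of negative regulators, 2 of 7 genes compared were higher in each library, against 3.63% and 1.92% of all genes compared. These were Isg15 and Usp18 in both cases. Further genes higher in both were Herc6, an enzyme that attaches Isg15 (8.57 and 5.46), XAF1, a gene linked to cell death (6.88 and 3.68), Ifit1lb (5.24 and 11.1) and the large ubiquitin ligase Rnf213 (4.60 and 3.30).

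Some abundant interferon-stimulated genes barely differed. Ifi27, the most abundant of the list, was found in all 86 members and stood at 2919 against 2319 CPM in the library labelled TNF and at 1705 against 1580 CPM in the control library, ratios of 1.26 (1.15 to 1.37) and 1.08 (0.999 to 1.16). The invariant class I chain B2m stood at 0.942 (0.833 to 1.06) and 1.09 (1.01 to 1.16). Of the antigen presentation list, 5 of 16 genes compared were higher in the library labelled TNF and 2 of 17 in the control library, with 0 lower. The shares over all genes compared were 3.63% and 1.92%. Admitted by the comparison level, 1 of 11, Psmb10, and 0 of 15 were higher, against 29 of 3330 and 39 of 5934 of all genes. Most calls of the list thus followed from the members' own counts. Among them were the peptide transporter Tap1 at 2.37 (1.49 to 3.59) and 1.85 (1.28 to 2.60), and the class I gene RT1-T24-3 at 2.92 and 2.82, the latter from 11 and 13 member counts. The immunoproteasome subunit Psmb9 stood at 1.16 and 1.18, with both intervals spanning 1, and was, with Tap1, named after its values were seen.

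**Figure D4:**
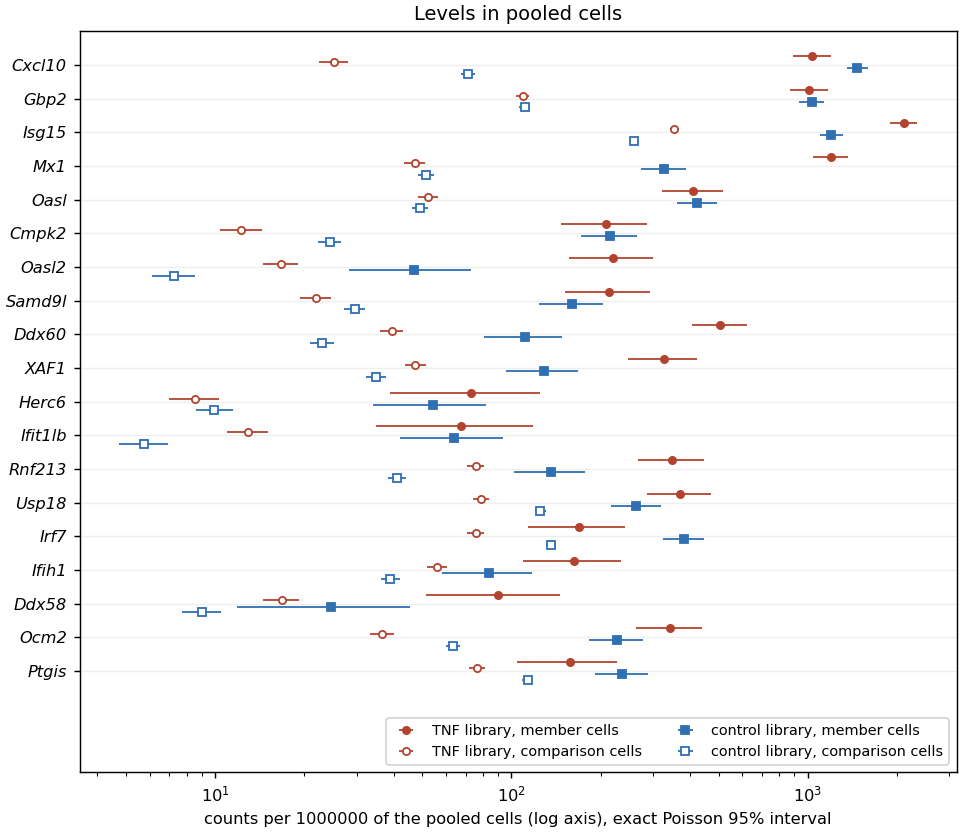
Pooled levels (x axis, counts per 1000000, log axis) of 19 genes in members (filled) and comparison cells (open) of the library labelled TNF (circles) and the control library (squares), with exact Poisson 95% intervals. The genes were picked from those called higher in both libraries, so filled symbols lie to the right of open symbols of the same library in every row by that choice. The distance was 41.1-fold and 20.6-fold for Cxcl10 and 2.05-fold and 2.09-fold for Ptgis.

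The members of the 2 libraries held different amounts of some of these genes. Mx1, an antiviral GTPase, was found in 19 of 33 members of the library labelled TNF, with up to 42 counts in a cell, and in 25 of 53 of the control library, with up to 31. It stood at 1198 CPM in members of the first and 328 CPM in members of the second, a ratio of 3.65 (2.93 to 4.57), while comparison cells stood at 47.2 and 51.3 CPM, a ratio of 0.920. Members over comparison cells, Mx1 was 25.4 (21.6 to 29.7) and 6.39 (5.29 to 7.67). The second value was 11.7 after thinning to 2000 counts and 10.8 without cells above 3 times their library's median total, against 6.39 as pooled, and the latter setting left 42 of the 53 control members and 32 of the 33 others.

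Oasl2 and the helicase Ddx60 also stood higher in members of the library labelled TNF, at 219 against 46.9 CPM (4.68-fold) and 506 against 111 CPM (4.56-fold), and the comparison cells differed in the same direction, by 2.29-fold and 1.72-fold. Irf7 was lower there, at 0.441 of the control members' level, and its comparison cells stood at 0.559. Cxcl10 stood at 0.704 in members and 0.354 in comparison cells, and Gbp2 at 0.979 and 0.981. With 1 library per label none of these differences was tested.

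Of the chemokines, Cxcl10 was the one past 2-fold in both libraries, of 7 listed genes compared in both, and in the library labelled TNF it was compared through the members' own counts. Ccl7, a chemokine for monocytes, stood at 534 against 101 CPM in the library labelled TNF (5.28, 4.24 to 6.51) and at 141 against 86.4 CPM in the control library (1.63, 1.23 to 2.12). Ccl2 stood at 3.82 (2.69 to 5.27) and 1.26 (1.15 to 1.38). Cxcl3, a neutrophil chemokine, was past 2-fold in the control library, at 271 against 62.4 CPM (4.35, 3.54 to 5.29), and was held by members of the other library in 4 counts. These genes were named after their values were seen, and whether the libraries differ in them was not tested. Cxcl1 stood at 1.09 (0.720 to 1.57) and 1.15 (1.07 to 1.24). Of the NF-kB target list, 3 of 12 genes compared were higher in the library labelled TNF and 0 of 19 in the control library, with 0 lower. Admitted by the comparison level, 1 of 10, Ccl2, and 0 of 19 were. Over all genes compared, 3.63% and 1.92% were higher, or 29 of 3330 and 39 of 5934 when admitted by the comparison level. The list's most abundant gene, Ier3, stood at 1.04 and 0.871.

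The cells that met the rule through Ifit2 alone differed from the other members in these values. They were 6 of 33 members in the library labelled TNF and 16 of 53 in the control library, a split that was made after seeing the data. The interferon-stimulated list took a median of 1.01% and 0.716% of their counts, against comparison medians of 0.790% and 0.685%. In the library labelled TNF that median, from 6 cells, lay above the comparison cells' upper quartile of 0.989%. The comparison cells' 95th percentile was passed by 0 of 6 and 3 of 16. In members with a count of Ifit3 or Rsad2 the medians were 2.42% and 1.69%, and 20 of 27 and 24 of 37 passed it. Members with Ifit2 alone had the higher totals, with medians of 7329 against 4319 counts and of 7231 against 5377, and the part of depth in the split was not tested. They also lay at low summed counts of the rule genes, at 2 in the library labelled TNF and at no more than 4 in the control library. Every member at a sum of 5 or more held Ifit3 or Rsad2. The split and the summed count thus go together, and the part of the summed count was not tested.

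In the same cells Cxcl10 had 0 counts in the library labelled TNF, where 3 counts would be worth 63.2 CPM, and stood at 73.1 CPM in the control library, against 1411 and 2296 CPM in members with Ifit3 or Rsad2. Mx1 stood at 42.1 CPM (5.10 to 152) and 26.6 CPM (7.24 to 68.0), against 1619 and 506 CPM. Isg15 stood at 442.5 and 206 CPM, against 2716 and 1789 CPM. Over all members at a summed count of exactly 2, of either class, Cxcl10 stood at 244 and 475 CPM. With members that held Ifit3 or Rsad2 only, 44 genes were higher in both libraries, 30 of them in the interferon-stimulated list, and with members of Ifit2 alone 7 were, of which 0 were in that list.

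**Figure D5:**
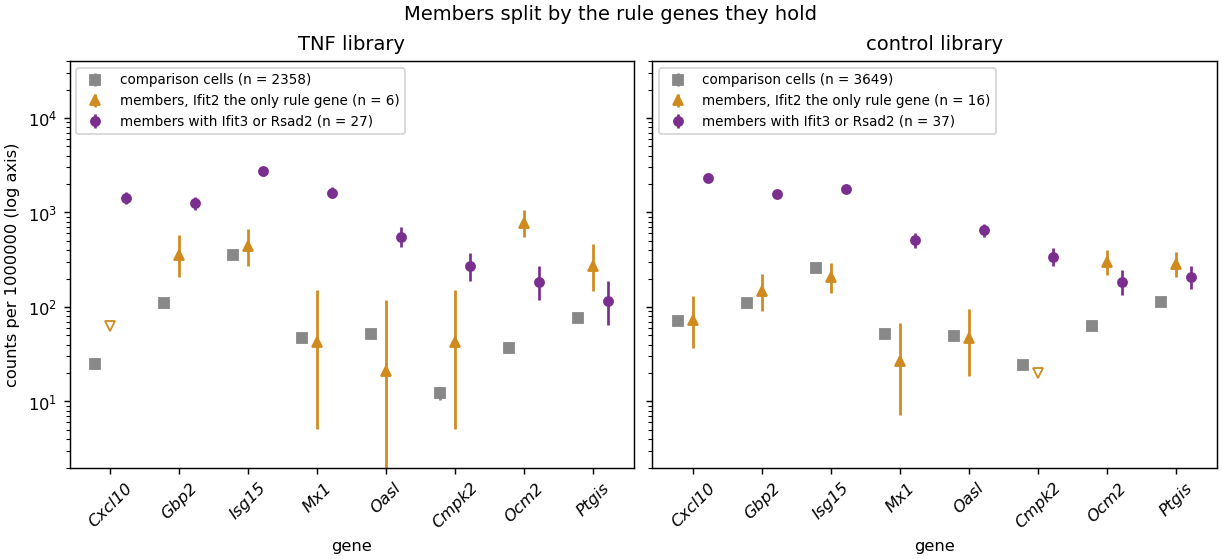
Pooled levels (y axis, counts per 1000000, log axis, exact Poisson 95% intervals) of 8 genes in comparison cells (squares), members with Ifit2 as the only rule gene (triangles) and members with Ifit3 or Rsad2 (circles) in the 2 libraries; an open triangle marks the level that 3 counts would give where none was seen. Circles stand above squares for each of the genes, which were picked from those called higher in members of both libraries. Triangles stand far below the circles for Cxcl10, Isg15, Mx1 and Oasl. They stand above the circles for Ocm2 and Ptgis, but the intervals overlap for Ptgis in both libraries and for Ocm2 in the control library.

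Outside the interferon-stimulated list, 8 genes were higher in both libraries, and 7 of the 35 were in none of the lists. Ocm2, which codes for a calcium-binding protein of the oncomodulin and parvalbumin family, had the highest ratios among those with a gene name. In the library labelled TNF it was compared only through the members' own counts, so its ratio there could only lie above 1. It was found in 8 of 33 members (24.2%, interval 11.1 to 42.3) and 7.72% of comparison cells of the library labelled TNF, and in 17 of 53 members (32.1%, 19.9 to 46.3) and 15.6% of comparison cells of the control library. Levels were 343 against 36.7 CPM and 227 against 63.5 CPM, ratios of 9.35 (7.04 to 12.2) and 3.58 (2.86 to 4.42). It was highest in members with Ifit2 alone, at 780 CPM (549 to 1075) and 299 CPM (218 to 400), from 3 of 6 and 6 of 16 cells. In the control library cells with 17 and 16 counts held most of the 45 counts of that class. In members with Ifit3 or Rsad2 it stood at 184 CPM in either library (118 to 274 and 136 to 245). The intervals of the 2 classes overlap in the control library. Ocm2 had 14 and 17 counts in the cell that held most. Of its 61 member counts in the library labelled TNF, 47 lay in cells at a sum of 2, 0 in the 9 cells at 3 to 4, and 14, all in 1 cell, in the 7 cells at 5 or more, and at a sum of 3 or more the ratio was 4.80.

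Ptgis, which makes prostacyclin, stood at 2.05 (1.36 to 2.99) and 2.09 (1.69 to 2.56), Shroom3, which shapes epithelial cells through actin, at 4.13 (2.03 to 7.57) and 2.10 (1.36 to 3.11), and Ly6e, a membrane protein known as an interferon-stimulated gene though not in the list, at 2.56 (1.88 to 3.40) and 2.78 (2.11 to 3.59). In the library labelled TNF 1 cell held 6 of the 11 member counts of Shroom3, and in the control library its ratio was 0.993 after thinning to 2000 counts. Shroom3 too was compared only through the members' own counts in the library labelled TNF. Over the alternatives Ptgis went down to 1.38 and 1.83. Ptgis, Shroom3 and Ly6e were named after their values were seen.

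The 3 genes lower in both libraries rested on few counts. Dnmt1, the enzyme that maintains DNA methylation, had 8 and 13 member counts and stood at 0.489 (0.210 to 0.966) and 0.463 (0.246 to 0.795). Slc5a6, a vitamin transporter, had 5 and 4 member counts, and Ebpl had 7 and 5. Of genes of the cell cycle, Top2a stood at 0.629 (0.449 to 0.858) and 0.559 (0.379 to 0.795), and Mki67 at 1.02 (0.782 to 1.31) and 0.755 (0.607 to 0.929). A single member of the library labelled TNF held 18 of the 40 counts of Top2a there, and the ratio was 0.952 after thinning, 0.387 at a sum of 3 or more and 0.221 with 2 of the 3 rule genes. Of the G2M phase list, 0 of 18 genes compared were past 2-fold in the library labelled TNF, and 3 of 28 were lower and 0 higher in the control library. Over all genes compared, 2.1% were lower and 3.63% higher in the first library, and 2.09% and 1.92% in the second. Of the G2M genes compared, 8 of 18 and 2 of 28 had a ratio above 1. The list's median log2 ratios were -0.04 and -0.41, against 0.03 and 0.02 over all genes compared.

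The identity of the cells was read from markers. Krt8, the keratin of simple epithelium, was found in all 86 members, at 1468 against 2205 CPM in the library labelled TNF and at 1860 against 2444 CPM in the control library, ratios of 0.666 (0.587 to 0.752) and 0.761 (0.707 to 0.818). The junction protein Cdh1, named after its values were seen, stood at 0.977 and 1.10. Krt18, named in the same way, stood higher in members, at 5.97 (3.76 to 9.07) and 1.57 (1.18 to 2.04). In the library labelled TNF it was compared through the members' own counts, and 1 member held 12 of 24. Of the 7 epithelial markers found, 3 had 0 counts in the members of each library. The list summed to 1951 CPM in members against 2571 CPM in comparison cells of the first library, and to 2644 against 3099 CPM in the second. Of 12 white blood cell markers, 11 had 0 counts in the members of each library, and the list summed to 5.62 and 2.47 CPM in members, which is 1 count each, against 4.59 and 9.01 CPM in comparison cells. Of 5 endothelial markers 4 were at 0 in each library, and Tek stood at 0.661 and 0.412.

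Mesenchymal markers were higher in the members of the control library. Their summed level was 1302 CPM against 601 CPM there, with 3 of 3 genes compared higher and 4 of 8 at 0, and 664 against 495 CPM in the library labelled TNF, with 0 of 2 higher and 5 of 8 at 0. Over all genes compared, 1.92% were higher in the control library and 3.63% in the other. Col1a2, the partner chain of Col1a1, had 2 and 0 member counts, at 4.93 against 16.7 CPM in the control library and 0 against 18.3 CPM in the other. Col1a1, a collagen chain, stood at 2.16 (1.91 to 2.43) in the control library and 1.47 (1.19 to 1.80) in the other, and 1 control cell held 95 of its 282 member counts. Without cells above 3 times the median total the control ratio was 1.11. The part of these cells in the results was not tested.

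Dclk1, the kinase that the study's title is about, stood at ratios near 1, with intervals that span it. It was found in 23 of 33 members and 67.4% of comparison cells of the library labelled TNF and in 38 of 53 members and 62.3% of comparison cells of the control library. Levels were 269.9 against 271 CPM and 264 against 248 CPM, ratios of 0.995 (0.732 to 1.32) and 1.06 (0.870 to 1.29). The TNF receptor gene Tnfrsf1a stood at 0.816 (0.532 to 1.20) in the control library and had 2 counts in members of the library labelled TNF, under the floor of 3 counts.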

How the data were processed

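IEC-6 cells were measured in 1 library labelled TNF and 1 control library, grouped by the sample titles. The authors deposited 1 count matrix per library, genes by cells, and its values are whole numbers that had not been normalized. Per the labels' protocols, thawed cells went into a 10K Genomics kit, and per the submitters' processing notes the build was Rnor_5.0. Not given in the sources used here are the aligner, the cell calling and whether a count is a unique molecule. If it is not, the intervals, which hold counting error alone, are too narrow.

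Counts were summed over members and over comparison cells and divided by the pool's total to give counts per 1000000 (CPM). In the library labelled TNF the pools held 177817 and 12426844 counts, so that 1 member count was worth 5.62 CPM, and in the control library 405380 and 19423065, or 2.47 CPM. Ratios are members over comparison cells with exact conditional binomial 95% intervals, a pool under 3 counts entered at 3. Levels have exact Poisson and shares exact Clopper-Pearson intervals. No p-value was computed. Cells were not clustered and no doublet caller was run; cells above 3 times the median total were left out as an alternative. The computation was tested on simulated data.

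The members and the 18 gene lists, of whose 423 names 373 were found, were chosen with earlier results of these data known. Some genes stand in several lists. Named genes were Ifit2, Ifit3, Rsad2, Cxcl10, Ifnb1, Dclk1, Tnfrsf1a, Mki67 and Top2a, the 15 highest and 8 lowest in both libraries by the less extreme ratio, up to 8 genes per list past 2-fold in both with each list's most abundant gene, and the 5 most like the rule in detection. Others are said to be named later or serve as checks. Some genes that the rule takes are left out of the text. Promoters came from RefSeq tables of GRCr8, while the counts use another build, and were matched by gene symbol or identifier. Alternatives changed depth, thresholds, cells, gene minimum and weighting. Python 3.11.15, numpy 2.4.6, scipy 1.17.1 and pandas 2.3.3 were used.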

Additional observations from a re-analysis of the deposited data

How the results depend on the processing

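No paired analysis was possible because each group has 1 library. Member shares: at a summed count of 3 or more they were 0.463% (library labelled TNF) and 0.420% (control), with 2 of the 3 genes detected 0.463% and 0.368%, and thinned to 2000 and 1000 counts 0.602% and 0.432%, and 0.209% and 0.180%. A stricter rule takes fewer cells by construction.

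Thinning to 2000 counts left 76 genes higher and 37 lower in the library labelled TNF, 58 lower in the control library, 22 list genes higher in each, 24 genes higher in both (21 of the 35) and 1 lower in both. A minimum of 5 counts gave 342 higher and 224 lower in the first library, 280 and 285 in the second, and 53 and 16 in both. A minimum of 20 gave 52 and 16, 54 and 33, and 25 higher and 0 lower in both. Filtering on the comparison level gave 29 and 39 higher, 12 in both, list counts of 11, 19 and 10, and a list median log2 ratio of 0.92 in the library labelled TNF. Requiring 2 of the 3 genes gave 49 lower in the library labelled TNF and 7 lower in both. Without the 5 members of highest summed count, 22 genes were higher in both (21 of the 35), 17 of them in the list, and 21 list genes were higher in the control library.

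Cxcl10 stood at 79.9 and 36.1 for sums of 3 or more, 66.0 and 39.4 with 2 of the 3 genes, 25.2 and 11.2 without the 5 highest members, and 56.0 and 32.2 with Ifit3 or Rsad2, where 0 genes were lower in both. In the control library it was 31.5 thinned, 27.5 as a mean over cells and 32.1 without cells of high total.

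With Ifit2 alone, list genes higher numbered 3, 0 and 0 in both, 7 genes were higher in both, list median log2 ratios were 0.32 and 0.20, and Cxcl10 stood at 2.51 (0 counts, entered at 3) and 1.03. Of named genes past 2-fold, those on the other side of 1 were Ifi27l2b (0.837 and 0.617), Mx2 (0.865 and 0.977), Irf7 (0.834) and Rtp4 (0.636) in the library labelled TNF, and in the control library Oasl (0.948), Mx1 (0.518), Ifih1 (0.511), Cmpk2 (0.818, 0 counts entered at 3), Ddx60 (0.870) and Isg15 (0.797). Thinned, Shroom3 (0.993) and Ebpl (1.42) did so in the control library. The cause of these shifts was not tested. Member pools of 177817 and 405380 counts limit what is seen of genes under about 10 counts.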

Other observations

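Ocm2 was also read in cells outside the rule that held exactly 1 count of Ifit2, Ifit3 or Rsad2 in sum and at least 2000 counts in all, a comparison chosen after seeing the data. In the library labelled TNF it was found in 9 of 49 cells whose 1 count was of Ifit2 (18.4%, interval 8.76 to 32.0), in 1 of 29 whose 1 count was of Ifit3 (3.45%, 0.0873 to 17.8) and in 1 of 23 with Rsad2, against 7.72% of comparison cells. In the control library it was found in 43 of 159 such cells with Ifit2 (27.0%, 20.3 to 34.7), in 9 of 47 with Ifit3 (19.1%, 9.15 to 33.3) and in 4 of 27 with Rsad2, against 15.6% of comparison cells (14.4 to 16.8). Pooled, Ocm2 stood at 211 and 142 CPM in the cells with 1 Ifit2 count and at 5.57 and 39.4 CPM in those with 1 Ifit3 count. Median totals were 5079 and 5541 counts in the 2 classes of the first library and 5781 and 4922 in the second. Cxcl10 was found in 10.2% (3.40 to 22.2) and 24.5% (18.1 to 32.0) of the cells with 1 Ifit2 count. In those with 1 Ifit3 count it was found in 17.2% (5.85 to 35.8) and 31.9% (19.1 to 47.1). In those with 1 Rsad2 count the shares were 30.4% (13.2 to 52.9) and 40.7% (22.4 to 61.2). Within each library the Cxcl10 intervals of these classes overlap. In each library the Ocm2 intervals of the cells with 1 Ifit2 count and with 1 Ifit3 count overlap. That of the control cells with 1 Ifit2 count lies above that of the comparison cells, and in the library labelled TNF the corresponding intervals meet (8.76 to 32.0 and 6.67 to 8.87). No difference was tested.

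Krt18, a keratin partner of Krt8, stood at 135 against 22.6 CPM in the library labelled TNF, but 1 member held 12 of its 24 counts, and at 141 against 89.5 CPM in the control library. The decorin gene Dcn stood at 1.04 and 2.15. The interferon gene Ifne had 6 and 2 counts in the libraries, 0 of them in members.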
